A study of Mus musculus with 12 samples.

Results

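Probes for 4 RIKEN cDNA clones at the loci Hells, Cdk2, Rttn and Rmi2 were followed in mouse vascular smooth muscle cells (VSMCs) with floxed or deleted Hif1a, with and without cobalt chloride (CoCl2). They are the probes ri|E130115I21|PX00092I01|1144 at Hells, ri|A630093N05|PX00148L23|2678 at Cdk2, ri|4921538A15|PX00015O11|1797 at Rttn and ri|A630055G03|PX00146O22|1077 at Rmi2, 4 of the 97836 probes outside the controls and 4 of the 1209 RIKEN clone probes whose clone name is linked to 1 gene. In all, 5396 genes had a linked probe. They were chosen from their own levels in all 4 groups of the study, so those levels and their differences are given as a description and were not tested. A clone probe can report a noncoding transcript of its locus, and the files used here do not give the probe sequences or the strand, so each value below belongs to the clone and not to the coding transcript. No other probe could be linked to any of the 4 loci.

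The cells came from male mice that were either Hif1afl/fl, which carry floxed alleles and are called wild type by the labels, or Hif1a△SMC, in which Hif1a is disrupted in smooth muscle cells; the promoter that drives the deletion is not named in the sources used here. Cells of each genotype were kept for 24 h with 150 µM CoCl2 or with a matching amount of phosphate-buffered saline (PBS). The 12 single-colour arrays thus form 4 groups of 3, named floxed PBS, floxed CoCl2, deleted PBS and deleted CoCl2 below. Whether the 3 arrays of a group stand for separate cultures or mice is not said in the labels, so a p-value reflects the spread between samples that may be technical copies. With 3 arrays in a group, the precision of every value is limited by their number. No probe named Hif1a was among those linked, so the deletion was not checked here. Of 18 smooth muscle marker genes, 2 (Synpo2 and Cald1) had a linked probe, and their 3 probes were well above background on all 12 arrays. The defining contractile markers were not among the linked probes. For other cell types, 1 of 11 fibroblast markers (Fbln2), 0 of 11 endothelial markers and 0 of 12 leukocyte markers had a linked probe.

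Hypoxia-inducible factor 1 (HIF-1) is a transcription factor whose alpha subunit, encoded by Hif1a, is hydroxylated and degraded when oxygen is present, and cobalt ions block that degradation. In low oxygen, many cell types, vascular smooth muscle among them, change their rate of division along with their metabolism. The 4 loci encode proteins of chromatin, the cell cycle, centrioles and DNA recombination. Hells is a SNF2-family helicase that remodels chromatin and is needed for normal DNA methylation. Cdk2 is the cyclin-dependent kinase that acts with cyclins E and A at the entry into and passage through S phase. Rttn, rotatin, is needed for the building of full-length centrioles. Rmi2 is a subunit of the complex of the Bloom helicase with topoisomerase 3 alpha, which resolves recombination intermediates.

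Promoters are shown because genes of replication are often controlled through E2F sites and the exposure acts on HIF, and both kinds of letters can be looked for in them. They are given for Hells and Cdk2 only. No promoter window was used for Rttn or Rmi2, so the matches below describe 2 of the 4 loci. The sequences are from RefSeq, build GRCm38.p6, and run from 250 bases before to 50 bases after the start of the gene, 5′ to 3′ on the strand of the gene, at chr19:38930740-38931039 (plus strand) for Hells and at chr10:128705002-128705301 (minus strand) for Cdk2. Capitals mark every match, on either strand, to E2F letters (TTTCCCGC, TTTCGCGC, TTTGCCGC or TTTGGCGC), to the cell cycle homology region (TTTGAA), to the CCAAT box (CCAAT) and to the HIF core (ACGTG or GCGTG).
Hells: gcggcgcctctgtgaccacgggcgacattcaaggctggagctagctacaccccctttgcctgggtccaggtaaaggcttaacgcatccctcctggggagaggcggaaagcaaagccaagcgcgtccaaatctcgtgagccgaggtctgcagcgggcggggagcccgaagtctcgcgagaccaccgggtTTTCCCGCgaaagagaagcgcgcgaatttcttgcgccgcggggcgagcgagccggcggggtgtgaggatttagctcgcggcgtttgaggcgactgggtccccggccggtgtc
Cdk2: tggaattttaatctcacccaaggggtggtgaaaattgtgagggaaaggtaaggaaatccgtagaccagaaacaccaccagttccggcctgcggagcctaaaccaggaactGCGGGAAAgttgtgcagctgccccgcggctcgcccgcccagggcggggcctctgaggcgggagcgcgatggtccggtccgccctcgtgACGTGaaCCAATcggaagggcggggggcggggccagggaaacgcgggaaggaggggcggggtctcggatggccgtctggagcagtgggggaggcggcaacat
The Hells window held 1 match, to the E2F letters TTTCCCGC, beginning 62 bases before the start. The Cdk2 window held the same E2F letters on the opposite strand at 140 bases before the start, the HIF core ACGTG at 52 bases and the CCAAT box at 45 bases before it. Neither window held TTTGAA. Over 32817 promoter windows of 300 bases, 2.26% held E2F letters, 17.9% TTTGAA, 37.4% CCAAT and 43.8% a HIF core. A match is a description of the letters and no evidence of binding. In the RefSeq order of protein-coding genes, Hells lies between Tbc1d12 and Cyp2c55, Cdk2 between Pmel and Dgka, Rttn between Socs6 and Cd226, and Rmi2 between Prm1 and Litaf.

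Signal differed between the groups over the whole arrays. The 75th percentile of log2 signal, which was subtracted from every array so that a level of 0 lies at that percentile, was 9.37 ± 0.16 (SD, n = 3) in floxed PBS, 9.26 ± 0.15 in floxed CoCl2, 9.07 ± 0.077 in deleted PBS and 8.17 ± 0.10 in deleted CoCl2. Between 51.9% and 58.5% of probes were well above background on the deleted CoCl2 arrays, and between 67.7% and 82.7% on the other 9. Every comparison that holds deleted CoCl2 therefore depends on how the arrays are scaled, and values under a second scaling, to 4 spike-in control probes of the E1A type, are given beside it. The second scaling was chosen after the data were seen and its probes because their raw signal was steady (range below 2 on the log2 scale). On deleted CoCl2 array 2, which was scanned on a later day than the others, these spike-ins were 11.7 on the log2 scale against 10.6 on the lowest array of that group, so the second scaling has an uneven array of its own. The arrays were spread over 3 slides. All 3 floxed PBS arrays shared slide 1 with 1 array of floxed CoCl2, the other 2 floxed CoCl2 arrays shared slide 2 with 2 of deleted PBS, and the last deleted PBS array shared slide 3 with all 3 of deleted CoCl2.

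The clone at Hells stood lowest in floxed CoCl2. Its scaled log2 level was 0.37, 0.23 and 0.16 on the 3 floxed PBS arrays and -1.42, -1.77 and -2.02 on the floxed CoCl2 arrays. It was 0.31, 0.28 and 0.56 in deleted PBS and -0.53, -0.94 and -0.30 in deleted CoCl2. Both CoCl2 groups lay below both PBS groups without overlap, and the deleted CoCl2 arrays all lay above the floxed CoCl2 arrays. In order, the means were 0.38 ± 0.16 (SD, n = 3) in deleted PBS, 0.25 ± 0.10 in floxed PBS, -0.59 ± 0.33 in deleted CoCl2 and -1.74 ± 0.30 in floxed CoCl2. The first and second of these did not differ beyond their spread. The single spot of this probe was well above background on all 12 arrays.

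The clone at Cdk2 had the same order of groups and the smallest spread. It was -1.61, -1.57 and -1.74 in floxed PBS and -3.54, -3.22 and -3.44 in floxed CoCl2. In deleted cells it was -1.46, -1.69 and -1.52 with PBS and -2.88, -2.93 and -2.70 with CoCl2. The arrays with CoCl2 were all below the arrays with PBS, and no deleted CoCl2 array reached down to the floxed CoCl2 arrays. The means were -1.56 ± 0.12 (SD, n = 3) in deleted PBS, -1.64 ± 0.092 in floxed PBS, -2.84 ± 0.12 in deleted CoCl2 and -3.40 ± 0.16 in floxed CoCl2, of which the PBS groups overlapped. The probe has 2 spots, which differed by a median of 0.0862 on the log2 scale over the 12 arrays (highest 0.724). On floxed CoCl2 array 1, only 1 of its 2 spots was well above background.

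The clone at Rttn showed the narrowest range. Its levels were -1.77, -1.60 and -2.08 in floxed PBS and -3.14, -2.85 and -2.80 in floxed CoCl2. They were -1.65, -1.73 and -1.68 in deleted PBS and -2.15, -2.80 and -2.41 in deleted CoCl2. With CoCl2 every array was below every PBS array, but deleted CoCl2 array 2 lay within the range of the floxed CoCl2 arrays. The means were -1.69 ± 0.039 (SD, n = 3) in deleted PBS, -1.82 ± 0.24 in floxed PBS, -2.46 ± 0.33 in deleted CoCl2 and -2.93 ± 0.19 in floxed CoCl2. Neither the PBS groups nor the CoCl2 groups were separated from each other. The spot was well above background on all 12 arrays.

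The clone at Rmi2 went the other way in floxed cells and was dimmer in deleted cells. It was -3.32, -3.44 and -3.14 in floxed PBS and -2.20, -2.16 and -1.27 in floxed CoCl2, and both of its spots were well above background on these 6 arrays. It was -4.24, -5.15 and -3.99 in deleted PBS and -5.37, -5.64 and -5.14 in deleted CoCl2. In deleted PBS, 1 of its 2 spots was well above background on arrays 1 and 3 and none on array 2, and in deleted CoCl2 no spot was well above background on any array. The means were -1.88 ± 0.52 (SD, n = 3) in floxed CoCl2, -3.30 ± 0.15 in floxed PBS, -4.46 ± 0.61 in deleted PBS and -5.38 ± 0.25 in deleted CoCl2. Neighbours in this order were separated except the deleted groups, which overlapped. A probe was tested if all 3 arrays of any 1 group had it well above background; all 4 clone probes met this, and the Rmi2 probe met it through floxed cells alone.

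**Figure D1:**
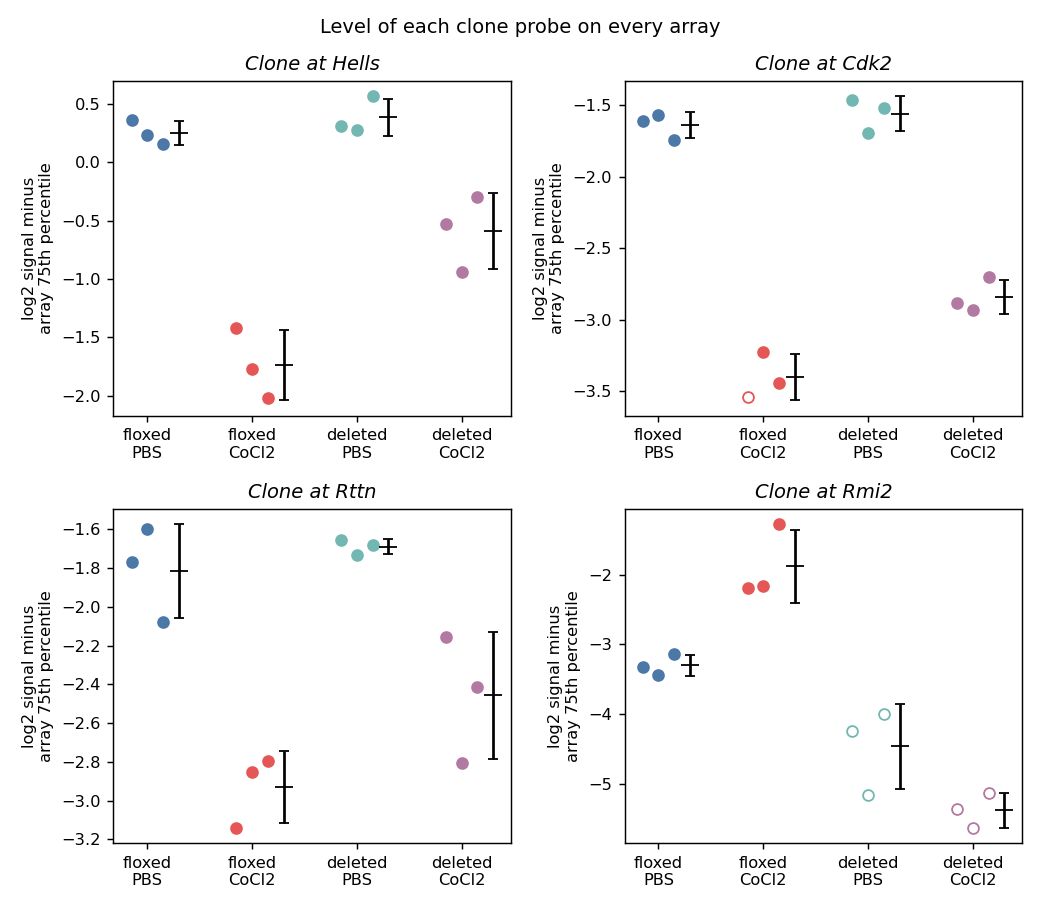
Scaled log2 signal (log2 signal minus the 75th percentile of the array) of each of the 4 clone probes on all 12 arrays, in the 4 groups; a point is 1 array, the bar is the mean and the whiskers are 1 SD (n = 3), and open points mark arrays where not every spot of the probe was well above background. The clones at Hells, Cdk2 and Rttn are low in both CoCl2 groups, and the clone at Rmi2 is high in floxed CoCl2 (-1.88 ± 0.52) and at or near background in deleted cells.

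With CoCl2 in floxed cells, the groups did not overlap for any of the 4 clones, 1 higher and 3 lower, where 12.8% of all 70909 tested probes were higher without overlap and 11.5% lower; since the clones were chosen from these levels, nothing is read from the count. The Hells clone was 3.97-fold lower (log2 difference -1.99, SE 0.20, n = 3 per group), the Cdk2 clone 3.39-fold lower (-1.76, SE 0.15) and the Rttn clone 2.16-fold lower (-1.11, SE 0.19). The Rmi2 clone was 2.68-fold higher (1.42, SE 0.31). On slide 1, the only slide with both floxed groups, the 1 CoCl2 array differed from the mean of the 3 PBS arrays by -1.67 for Hells, -1.90 for Cdk2, -1.33 for Rttn and 1.10 for Rmi2. Position on slides 1 and 3 followed the treatment, and the effects of position and treatment within a slide cannot be told apart. These 4 differences kept their direction under every alternative run for them (the strictest filter left out the Cdk2 and Rmi2 probes), from -2.15 to -1.65 for Hells, -1.95 to -1.004 for Cdk2, -1.33 to -0.67 for Rttn and 0.76 to 1.58 for Rmi2. The 3′ minus 5′ signal of the Pgk1 control probes, a sign of RNA quality, was 2.82 ± 0.021 in floxed PBS and 2.72 ± 0.025 in floxed CoCl2, and for Gapdh it was -2.32 ± 0.016 and -1.91 ± 0.13 (SD, n = 3); their part in the differences was not tested. In such bulk samples, a lower signal from fewer cells that make a transcript cannot be told apart from less of it per cell.

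With CoCl2 in deleted cells, 3 of the 4 clones were lower without overlap, against 34.5% of all tested probes lower in that way and 24.3% higher. The Cdk2 clone was 2.43-fold lower (log2 difference -1.28, SE 0.15), the Hells clone 1.96-fold (-0.97, SE 0.20) and the Rttn clone 1.70-fold (-0.77, SE 0.19). Scaled to the steady E1A probes, the differences were -2.35 for Cdk2, -2.05 for Hells and -1.84 for Rttn, on a scale where the median of all tested probes was -1.21 in place of -0.13. Normexp, a background correction, was run with an offset of 50 added to the signal, which narrows log2 differences of dim probes. With normexp and quantile normalization the 3 differences shrank to -0.58 for Cdk2, -0.75 for Hells and -0.29 for Rttn. With quantile normalization alone they were -0.85, -0.89 and -0.41 in the same order. The 3 clones were thus lower under each of these, by an amount that depended on the processing. On slide 3, the 3 CoCl2 arrays differed from the 1 PBS array by -1.15 for Hells, -1.32 for Cdk2 and -0.77 for Rttn. The Rmi2 clone was dim in both deleted groups and no fold is given for it. Pgk1 3′ minus 5′ signal was 3.07 ± 0.048 in deleted PBS and 2.67 ± 0.19 in deleted CoCl2, and that of Gapdh -2.25 ± 0.091 and -2.12 ± 0.14 (SD, n = 3); their part in these differences was not tested.

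Without CoCl2, the genotypes did not overlap for the Rmi2 clone alone. It was 1.16 lower in deleted cells on the log2 scale (difference -1.16, SE 0.31, n = 3 per group) without overlap, where 25.8% of all tested probes were lower without overlap and 21.9% higher. Of the 3 deleted PBS arrays, 2 had 1 of its 2 spots above background and none had both. The difference shrank to -0.29 with normexp and quantile normalization, within the spread of the arrays (pooled SD 0.43), and was -1.87 with slide as a block. The other clones overlapped between the genotypes: the differences were 0.13 for Hells (95% interval -0.31 to 0.58), 0.08 for Cdk2 (-0.24 to 0.40) and 0.13 for Rttn (-0.30 to 0.55). Under the steady E1A scaling these 3 values turned to -0.17, -0.22 and -0.17. No slide held PBS arrays of both genotypes, so slide and genotype could not be separated within a slide. Some marker probes differed between the genotypes too, and others did not. At Cald1, the caldesmon gene of smooth muscle, the clone was 2.25 to 2.51 in floxed PBS and 2.95 to 3.22 in deleted PBS. Both probes at Synpo2, the other linked smooth muscle marker, overlapped between the genotypes under PBS. The clone at Fbln2, a matrix gene of fibroblasts, was above background on the 3 deleted PBS arrays (-4.39 to -3.53) and on none of the other 9. The part of these marker probes in the Rmi2 difference was not tested.

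Under CoCl2 and with the percentile scaling, the Rmi2 clone was at least 2.66-fold lower in deleted than in floxed cells. This is a lower bound, because the probe was not above background in deleted CoCl2; it sets the floxed mean of -1.88 against the mean, -3.29, of the lowest signal well above background on each deleted array. The measured difference was -3.50 (SE 0.31), and -4.73 under the steady E1A scaling. With normexp and quantile normalization it was -1.32. The offset of normexp narrows differences of dim probes, so this value cannot decide whether the log2 bound of 1.41 holds there. The other 3 clones gave no difference whose direction held under every scaling. Deleted minus floxed was 1.15 (SE 0.20) for Hells, 0.56 (SE 0.15) for Cdk2 and 0.47 (SE 0.19) for Rttn with the percentile scaling. With the steady E1A scaling it was -0.08, -0.67 and -0.76. A scaling to 6 E1A probes, 2 of them unsteady, gave 0.86, 0.28 and 0.18. Of the alternatives run, only the steady E1A scaling turned these directions. The Hells difference was 1.37 with quantile normalization, 0.95 with normexp and quantile normalization, and 1.04 with slide as a block. Before any scaling, the Hells clone stood at 7.53 ± 0.27 in floxed CoCl2 and 7.58 ± 0.24 in deleted CoCl2 (log2 signal, SD, n = 3), the Cdk2 clone at 5.86 ± 0.31 and 5.33 ± 0.11, and the Rttn clone at 6.34 ± 0.31 and 5.71 ± 0.23. Unscaled signal of the Hells clone thus overlapped between the genotypes, while that of Cdk2 and Rttn was lower in deleted cells. With the percentile scaling 2 of the 4 clones were higher and 1 lower without overlap, against 32% and 35.3% of all tested probes. The CoCl2 arrays of the genotypes shared no slide, so slide and genotype could not be separated within a slide here either.

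**Figure D2:**
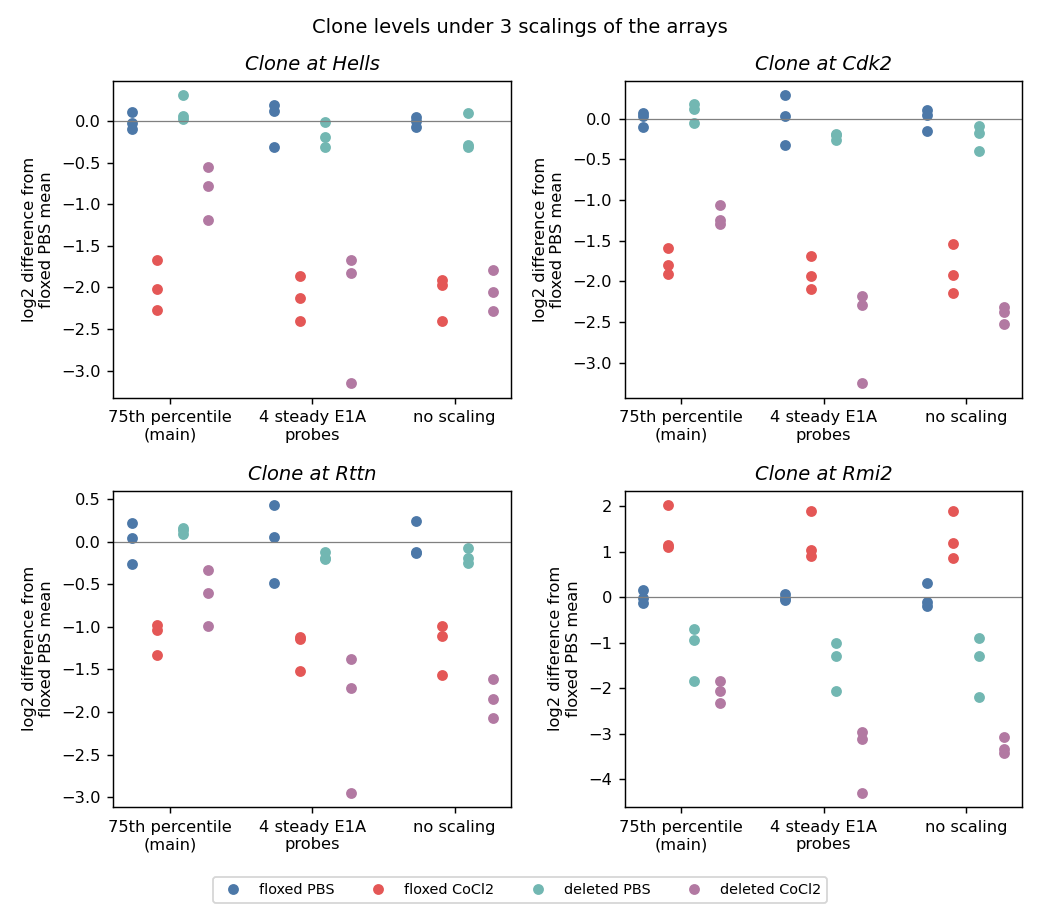
Difference of each array from the mean of floxed PBS (log2) for the 4 clones, with the arrays scaled to their 75th percentile, scaled to 4 steady E1A spike-in probes, or not scaled; a point is 1 array and colours mark the 4 groups. Within each panel, floxed CoCl2 lies on the same side of floxed PBS under every scaling: below it for Hells, Cdk2 and Rttn and above it for Rmi2. The deleted CoCl2 mean, in contrast, lies above the floxed CoCl2 mean for Hells, Cdk2 and Rttn with the percentile scaling and below it for Cdk2 and Rttn with the others.

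The deleted minus floxed difference of the CoCl2 effects was -2.34 in measured signal for the Rmi2 clone (SE 0.44) and -3.27 under the steady E1A scaling. Its size has no bound here, because the deleted CoCl2 signal was below background and no fold is given for CoCl2 in deleted cells. For Hells it was 1.02 (SE 0.29) and 0.08 under the steady E1A scaling, so that its size rested on the scaling. For Cdk2 it was 0.48 (SE 0.21) and for Rttn 0.35 (SE 0.27, 95% interval -0.25 to 0.94), and these turned to -0.45 and -0.58 under the steady E1A scaling. These values share the choice of the clones and were not tested.

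Over the arrays, the Hells, Cdk2 and Rttn clones varied together. Pearson's r over the 12 arrays was 0.943 between Hells and Cdk2, 0.949 between Cdk2 and Rttn and 0.915 between Hells and Rttn. The Rmi2 clone gave -0.520 with Hells, -0.319 with Cdk2 and -0.371 with Rttn. The arrays fall into 4 groups and share their scaling, so these r values describe the group means more than single arrays, and no p is given.

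**Figure D3:**
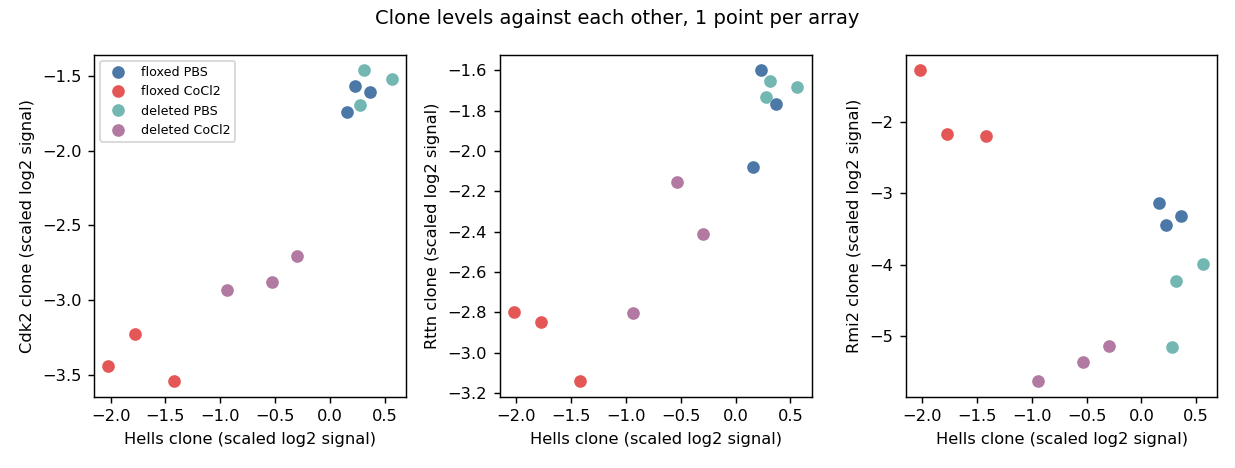
Scaled log2 signal of the Cdk2, Rttn and Rmi2 clones (vertical axes) against that of the Hells clone (horizontal axes); a point is 1 of the 12 arrays and colours mark the 4 groups. For Cdk2 and Rttn the arrays run from low in floxed CoCl2 to high in PBS, while for Rmi2 the floxed CoCl2 arrays stand apart from the deleted CoCl2 arrays.

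Among 3441 probes linked to a gene by clone or RefSeq accession, those most like each clone over the 12 arrays, by Pearson's r, were as follows. For Hells they were a clone at Jpt2 (0.950), Gata6os (0.926) and 2700038G22Rik (0.924). For Cdk2 they were 2700099C18Rik (0.932), Gm41056 (0.927) and the noncoding record of Bcor (0.920), a corepressor gene. The Bcor record was also among those for Rttn (0.911), with Gm30938 (0.931) and 2810408I11Rik (0.914), and its group means were -0.99 in floxed PBS, -2.42 in floxed CoCl2, -0.51 in deleted PBS and -1.82 in deleted CoCl2. For Rmi2 they were Gm31128 (0.940), Gm10248 (0.926) and 5830432E09Rik (0.918). Gm31128 was well above background on all 12 arrays, with means of 0.94 in floxed PBS, 1.38 in floxed CoCl2, 0.56 in deleted PBS and 0.42 in deleted CoCl2. Its order of groups was thus that of the Rmi2 clone, at a smaller range. All these probes were chosen for their likeness over the same 12 arrays, so a shared order is no separate support for a clone's pattern.

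Few other genes of these processes could be read on the arrays. Of 647 genes on 6 lists (DNA replication, cyclins and their kinases, mitosis, centrioles, recombination and repair, chromatin remodelling), 26 had a linked probe and 25 were tested, 24 through a clone and Cdk3 through a RefSeq noncoding record. With CoCl2 in floxed cells, 10 of the 25 had an unadjusted limma p below 0.05, most of them lower. No share of all probes is given beside that count, so nothing is read from it. At an adjusted p below 0.05, 1 of the 25 passed limma's test, against 4.94% of all tested probes (2.21% higher and 2.73% lower). It was the clone at Kif2a, a kinesin that depolymerises microtubules, which rose 2.28-fold (log2 difference 1.19, SE 0.31, n = 3 per group, limma adjusted p = 0.0479), from -0.02 ± 0.43 to 1.16 ± 0.51. This call was lost without any 1 of the arrays other than floxed CoCl2 array 2 and deleted CoCl2 arrays 2 and 3, with slide as a block (adjusted p = 0.252) and under the steady E1A scaling (adjusted p = 0.262). With the replicate number as a block the call stayed (limma adjusted p = 0.00542). The median of the 25 was -0.29, against 0.01 over all tested probes. None of the 25 passed as lower, but the clone at Cep295, a centriole protein, came near (-0.88, SE 0.23, limma adjusted p = 0.0542). The clones at Hells, Cdk2 and Rttn had been chosen at -1.11 or below, so no contrast with the 25 is read.

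In deleted cells, 8 of the 25 passed with CoCl2, 3 higher and 5 lower, against 52.8% of all tested probes (20.1% higher and 32.7% lower). The lower ones were the clones at Smarca5 (-2.14, SE 0.47), the ATPase of ISWI chromatin remodellers, at Kif2c (-0.84, SE 0.20), a kinesin of the centromere, at Ncapd3 (-0.80, SE 0.16), a condensin II subunit, and at Kat2b (-0.80, SE 0.26), an acetyltransferase, and the Cdk3 record (-1.80, SE 0.21), with limma adjusted p from 0.000114 to 0.023. Smarca5 was well above background on 1 of the 3 deleted CoCl2 arrays, and Cdk3 and Kat2b on none. With the percentile scaling Cdk3 was at least 1.22-fold lower, and no fold is given for Kat2b. The higher ones were the clones at Top2b (1.41, SE 0.28), the beta isoform of topoisomerase II, at Kif2a (0.89, SE 0.31) and at Anapc10 (0.74, SE 0.25), a subunit of the anaphase-promoting complex, with limma adjusted p from 0.0018 to 0.0284. Under the steady E1A scaling 18 of the 25 were lower and 0 higher, with Top2b at 0.34, Kif2a at -0.18 and Anapc10 at -0.34. With slide as a block 2 of the 8 passed, Cdk3 (adjusted p = 0.00392) and Ncapd3 (adjusted p = 0.0297), beside the clone at Cep295, a centriole protein (-0.75, adjusted p = 0.0498), which had not passed without it (-0.41, adjusted p = 0.159). The Kat2b and Kif2a calls were also lost with quantile normalization, with and without normexp (limma adjusted p up to 0.915 and 0.0722), and the Kif2c call with normexp (adjusted p = 0.0566). Scaling to 6 E1A probes ended the Kif2a and Anapc10 calls (limma adjusted p = 0.203 and 0.309). The Kif2a, Anapc10 and Kat2b calls were each lost without deleted PBS array 2 and without deleted CoCl2 array 1. Kif2a also lost its call without deleted PBS array 1 or deleted CoCl2 array 3, Anapc10 without deleted PBS array 3 and Kat2b without deleted PBS array 1.

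Without CoCl2, 1 of the 25 differed between genotypes, against 1.48% of all tested probes (0.533% higher and 0.946% lower). The clone at Topbp1, a protein of replication start and of checkpoint signalling, was 1.69-fold lower in deleted cells (2.45 ± 0.028 against 1.70 ± 0.19, log2 difference -0.76, SE 0.15, n = 3 per group, limma adjusted p = 0.047). The call was lost without any 1 of the arrays other than floxed CoCl2 array 1 and the 3 deleted CoCl2 arrays, with slide as a block (adjusted p = 0.0809) and under the steady E1A scaling (adjusted p = 0.0531).

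Under CoCl2, 14 of the 25 differed between genotypes, 8 higher and 6 lower in deleted cells, against 67.8% of all tested probes (31.9% higher and 36% lower). By measured signal they included Smarca5 (-3.13, SE 0.47; above background on 1 of the 3 deleted CoCl2 arrays), Top2b (1.82, SE 0.28), Cdk3 (-1.78, SE 0.21; above background on none of them, at least 1.21-fold lower with the percentile scaling) and Kif2c (-1.18, SE 0.20), with limma adjusted p from 3.78e-05 to 0.000387. Also among them were the clones at Zw10 (0.95, SE 0.29), a kinetochore protein, Srcap (0.94, SE 0.20), a chromatin remodeller, Nek7 (0.88, SE 0.15), a mitotic kinase, and Topbp1 (-0.77, SE 0.15), with adjusted p from 0.000339 to 0.0125. Under the steady E1A scaling 14 were lower and 0 higher: of the higher ones Top2b stood at 0.59 without passing (adjusted p = 0.125), and Zw10, Srcap and Nek7 turned to -0.28, -0.29 and -0.35. With slide as a block 4 passed, Nek7 higher and Smarca5, Cdk3 and Kif2c lower. The CoCl2 arrays of the genotypes shared no slide, so the block compares them only through the deleted PBS arrays. The Zw10 call was lost without floxed CoCl2 array 2 or deleted CoCl2 array 1.

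The difference of the CoCl2 effects passed for 2 of the 25, Smarca5 (-2.36, SE 0.67, limma adjusted p = 0.03) and Cdk3 (-1.61, SE 0.30, adjusted p = 0.00574), against 20.5% of all tested probes (2.84% higher and 17.7% lower). Neither passed with slide as a block (adjusted p = 0.553 and 0.261). The Smarca5 call was lost without any 1 of the arrays other than floxed CoCl2 array 1, deleted PBS array 3 and deleted CoCl2 arrays 2 and 3.

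**Figure D4:**
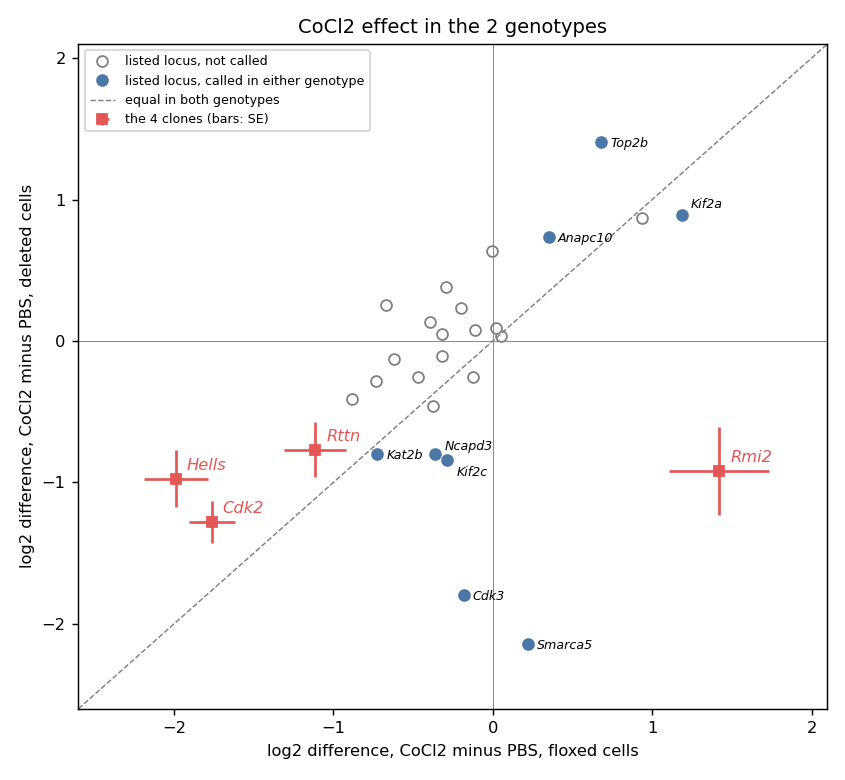
Log2 difference of CoCl2 minus PBS in deleted cells (vertical axis) against the same in floxed cells (horizontal axis), for the 4 clones (squares, bars are SE) and the 25 tested loci of the 6 lists (circles, filled where limma's adjusted p was below 0.05 in either genotype); the dashed line marks equal effects. The Hells, Cdk2 and Rttn clones lie in the lower left, Rmi2 lies at 1.42 in floxed cells at a vertical position that rests on signal not well above background, and the position of every point on the vertical axis depends on the scaling of the deleted CoCl2 arrays.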

How the data were processed

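RNA from 12 samples was labelled with cyanine-3 and hybridised to single-colour Agilent arrays, per the labels' protocols; another label field names biotin. The deposited scanner files hold spot intensity, from Agilent Feature Extraction 11.5.1.1 per the file headers, while the submitters' processing notes give 9.1 as the version. A deposited value table holds log2 intensity that differed from the scaled scanner values by a constant near 0, with at most 1 probe per array off by over 0.01, and served as an alternative. What the authors did to make it is unstated in the labels and headers used here.

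Here log2 of the processed signal was averaged over the spots of a probe and each array's 75th percentile was subtracted. Of 97836 probes outside controls, 70909 were well above background on every array of any 1 group and were tested with limma 3.58.1 in R 4.3.3 (1 fit over 12 arrays with 1 mean per group, 8 residual degrees of freedom, Benjamini-Hochberg adjusted p below 0.05), a step checked on simulated data. Clones and accessions were linked through a RefSeq table of GRCm38.p6: 1209 of 15675 clone probes and 4656 of 13017 accession probes matched 1 gene. The array design names build mm9, so no coordinates came from it.

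The 4 clones and the gene lists were chosen with earlier results of these data known. Named are the clones, list members past the threshold (up to 8 per comparison, by size), the 3 probes most like each clone, and the Pgk1 and Gapdh controls. Whether the numbers in the titles pair arrays was checked on deviations from group means. Floxed arrays of 1 number moved together across treatments (r = 0.396 to 0.452) and were counted as pairs on these values alone. Deleted arrays did not all do so (r = -0.144 to 0.285). The main fit does not use the pairs, so its SE and p-values for CoCl2 in floxed cells leave this possible pairing out. Alternatives were other scalings, normalizations and filters, the value table, slide and replicate number as blocks, and omission of each array.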

Additional observations from a re-analysis of the deposited data

Results flagged for a closer look

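The difference of the CoCl2 effects between genotypes passed limma's interaction test for the Cdk3 record (-1.61 on the log2 scale, deleted minus floxed) and for the clone at Smarca5 (-2.36). Both were dim with CoCl2 in deleted cells: Cdk3 was above background on 0 of the 3 arrays and Smarca5 on 1. The clone at Rmi2 gave -2.34 in measured signal, with every floxed CoCl2 array above the mean of the floxed PBS arrays and every deleted CoCl2 array below the mean of the deleted PBS arrays. It too was dim in deleted cells, with no spot above background on any CoCl2 array and groups that overlapped, so the direction there is not settled; that difference was not tested, since the clone was chosen from these levels.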

How the results depend on the processing

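For the 4 clones, 430 differences were recomputed under the alternatives: 146 could not move and were identical (an array or filter outside the comparison, or the replicate block), 230 moved by less than the spread between arrays, 42 moved by more without turning and 12 turned. For deleted minus floxed under PBS, Cdk2 turned to -0.013 when scaled to 6 E1A probes, -0.22 with the 4 steady ones and -0.15 with slide as a block; Rttn turned to -0.17 with the 4 steady E1A probes, -0.19 with slide as a block and -0.0050 without floxed PBS array 3 (up to 0.24 without another array); Hells turned to -0.17 with the 4 steady E1A probes. The same 4 probes turned deleted minus floxed under CoCl2 to -0.081 for Hells, -0.67 for Cdk2 and -0.76 for Rttn, and the difference of the CoCl2 effects to -0.45 for Cdk2 and -0.58 for Rttn. Normexp and quantile normalization reduced the Rmi2 difference between genotypes under CoCl2 to -1.32 and its rise in floxed cells to 0.76. The causes were not tested.

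Of the 25 listed loci, the count called with CoCl2 in floxed cells (1) was 0 with either E1A scaling, with no filter or with slide as a block, and 2 with quantile normalization, with or without normexp, or with probes above background on all arrays only. In deleted cells the count (8) was 18 with 4 steady E1A probes and 3 with slide as a block. For the genotypes under PBS (1) it was 0 with 4 steady E1A probes, no filter, slide or the replicate block, and 2 with quantile normalization or the strictest filter. Under CoCl2 (14) it was 4 with slide as a block. For the difference of effects (2) it was 6 with 4 steady E1A probes, and 0 with either quantile normalization, the strictest filter or slide as a block. Leaving out 1 array gave 0 to 2 for CoCl2 in floxed cells, 5 to 9 in deleted cells, 0 to 1 for genotype under PBS, 11 to 16 under CoCl2 and 1 to 3 for the difference of effects. With the replicate number as a block the counts were 1, 11, 0, 15 and 2; the only call it ended was that of Topbp1 under PBS (adjusted p = 0.0535), a comparison in which the numbers do not pair the arrays, and the clones' differences did not move. Normexp was run on the median spot signal with an offset of 50, since the files used here hold no mean signal. Signal over background limits every value of Rmi2, Cdk3 and Kat2b in deleted CoCl2.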
